A study of Mus musculus with 2 samples.

Results

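The 9 genes described here encode transcription factors of the macrophage lineage: Spi1, Maf, Runx1, Mef2a, Mef2c, Mitf, Zeb2, Bhlhe40 and Tfec. They were chosen by name, with earlier results of these data already known, and all 9 were among the 32286 features counted. The study set heart leukocytes from mice that had received control bone marrow beside those from mice that had received LOY bone marrow (loss of the Y chromosome), and its title places the comparison in cardiac fibrosis. All mice of both groups underwent TAC (transverse aortic constriction, which narrows the aorta and loads the left ventricle). Viable cells carrying CD45, the general leukocyte surface antigen, and RFP, which per the labels marks descent from the transplanted marrow, were sorted from digested left ventricles without the right ventricle, and droplet single-cell RNA sequencing counted the 3' ends of transcripts. Each group was 1 library, made from the sorted cells of 3 mice mixed together, so no value below has a replicate check and no test was run. How the Y chromosome was lost, the ages and strain of the mice, the conditioning of the hosts and the time after surgery are stated nowhere in the labels.

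Macrophages take their identity from a small set of factors that act together on shared enhancers. PU.1, the product of Spi1, opens chromatin in myeloid cells and B cells, while factors such as c-Maf, MITF, MEF2C and ZEB2 add programs that differ between tissues and activation states. In the heart, resident macrophages are long-lived cells that clear debris, and they are joined under load by cells that derive from blood monocytes.

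The members lie on 6 chromosomes of the mouse build GRCm38 (mm10), by the GENCODE M21 annotation. Spi1 (ENSMUSG00000002111) spans 91082390 to 91115756 of chromosome 2, and Zeb2 (ENSMUSG00000026872) spans 44983632 to 45117395 of the same chromosome. Chromosome 6 holds Tfec (ENSMUSG00000029553, 16833373 to 16898441), Mitf (ENSMUSG00000035158, 97807052 to 98021349) and Bhlhe40 (ENSMUSG00000030103, 108660629 to 108666925). Mef2a (ENSMUSG00000030557) spans 67231163 to 67372858 of chromosome 7 and Maf (ENSMUSG00000055435) 115682942 to 115707794 of chromosome 8. Mef2c (ENSMUSG00000005583) spans 83504034 to 83667080 of chromosome 13 and Runx1 (ENSMUSG00000022952) 92601466 to 92826149 of chromosome 16. Maf, Runx1, Mef2a, Mitf, Zeb2 and Bhlhe40 overlap annotated genes on the opposite strand, and the labels do not state the strand setting of the counting, so their reads may not be told apart. Mef2a (Gm44667 and Gm44668) and Zeb2 (Mir5129) also overlap genes on their own strand, where no strand setting separates the reads.

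The RefSeq promoter table (GRCm38.p6) held 14 start sites for 6 of the members, namely Runx1, Mef2a, Mef2c, Mitf, Zeb2 and Tfec. Those of Mef2a and Zeb2 are shown because their levels were the most alike of any pair of members across classes and states (values below). Each line gives the 250 bases before the farthest upstream start site in the table, on the gene's own strand, with GAGGAA, the core of many PU.1 sites, in capitals where it occurs on either strand. The windows lie on the minus strand, at chr7:67372859-67373108 for Mef2a and chr2:45117443-45117692 for Zeb2.
Mef2a: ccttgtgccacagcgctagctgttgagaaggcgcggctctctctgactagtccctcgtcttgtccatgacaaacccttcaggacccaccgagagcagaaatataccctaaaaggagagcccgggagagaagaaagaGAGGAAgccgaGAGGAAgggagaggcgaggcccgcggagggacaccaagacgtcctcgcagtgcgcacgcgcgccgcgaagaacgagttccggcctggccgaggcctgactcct
Zeb2: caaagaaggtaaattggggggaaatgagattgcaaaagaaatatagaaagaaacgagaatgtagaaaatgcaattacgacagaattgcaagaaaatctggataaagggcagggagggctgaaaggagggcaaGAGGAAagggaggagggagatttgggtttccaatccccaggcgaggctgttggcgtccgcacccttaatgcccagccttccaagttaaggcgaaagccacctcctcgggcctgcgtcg
The Mef2a window held GAGGAA 2 times and the Zeb2 window 1 time. Of the 14 windows of the members, 8 held it, beside 23.3% of all 32851 windows of this length in the table. The 8 were windows of Runx1, Mef2a, Mef2c and Zeb2, and 2 of the Zeb2 windows overlap each other. Other motifs were searched too. The E-box of MITF was in a Runx1 window and the AP-1 site in a Zeb2 window, beside 6.02% and 4.46% of all windows. The M-box core of MITF was in no window of the members, beside 12.3%. A match of letters says nothing of binding in these cells.

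The control library held 7276 cell barcodes with 42640861 UMIs (unique molecular identifiers, each 1 counted transcript) and the LOY library 5475 with 18710715. After filtering, 6904 control cells with a median of 5211.5 UMIs and 5180 LOY cells with a median of 3006 remained, so LOY cells were sampled less deeply. The libraries shared 31 barcodes, 28 of them among the kept cells. The summed level of the Y-linked genes Ddx3y, Eif2s3y, Kdm5d and Uty was 124 CPM (counts per 1e6 UMIs) for control and 14.0 CPM for LOY. No UMI of the RFP sequence was counted in either library. Classes were named from marker genes after clustering without the 9 members. Macrophage-like cells, named from 12 markers that include the C1q genes, were 4610 control and 3393 LOY cells, and the classes B cell-like, T cell-like, NK cell-like, neutrophil-like, monocyte-like and conventional dendritic cell-like were also found. Clusters whose leading genes crossed these classes keep the names of their leading genes. They are the Cd209a and Ccl17 cluster, the Ace and Treml4 cluster (with genes of patrolling monocytes) and the Ly6c2 and Apoc2 cluster (with C1q genes beside monocyte genes). The summed level of 12 stress and dissociation genes such as Fos and Hspa1a was 11284 CPM (control) and 3725 CPM (LOY) in the macrophage-like class and was lower in the LOY library in every class and state compared below. Its part in the differences between the libraries was not tested.

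Macrophage-like cells held most of the transcripts of 8 members, while Bhlhe40 came mostly from other cells. These shares are read beside that of the class in all UMIs of kept cells, 74.2% in control and 73.6% in LOY. Of all UMIs of a member in kept cells of the control library, macrophage-like cells held 94.1% for Maf, 91.8% for Tfec, 91.5% for Mitf, 84.7% for Zeb2, 84.2% for Runx1, 82.2% for Mef2a, 78.8% for Mef2c and 78.8% for Spi1. For Bhlhe40 the share was 15.2%. In the LOY library the shares of those 8 lay between 73.4% (Spi1) and 90.9% (Mitf), and that of Bhlhe40 was 26.7%. Spi1 in both libraries, and Mef2c in control, were thus near the share of the class in all UMIs, and Spi1 in LOY was just below it. Runx1 (77.2%) and Zeb2 (78.5%) in LOY were also near that share. Levels are given for the 10 classes and clusters with at least 40 cells in each library, and statements on the highest and lowest levels cover these. They are CPM over the summed UMIs of a class, with exact Poisson intervals (95%, counting error only).

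**Figure D1:**
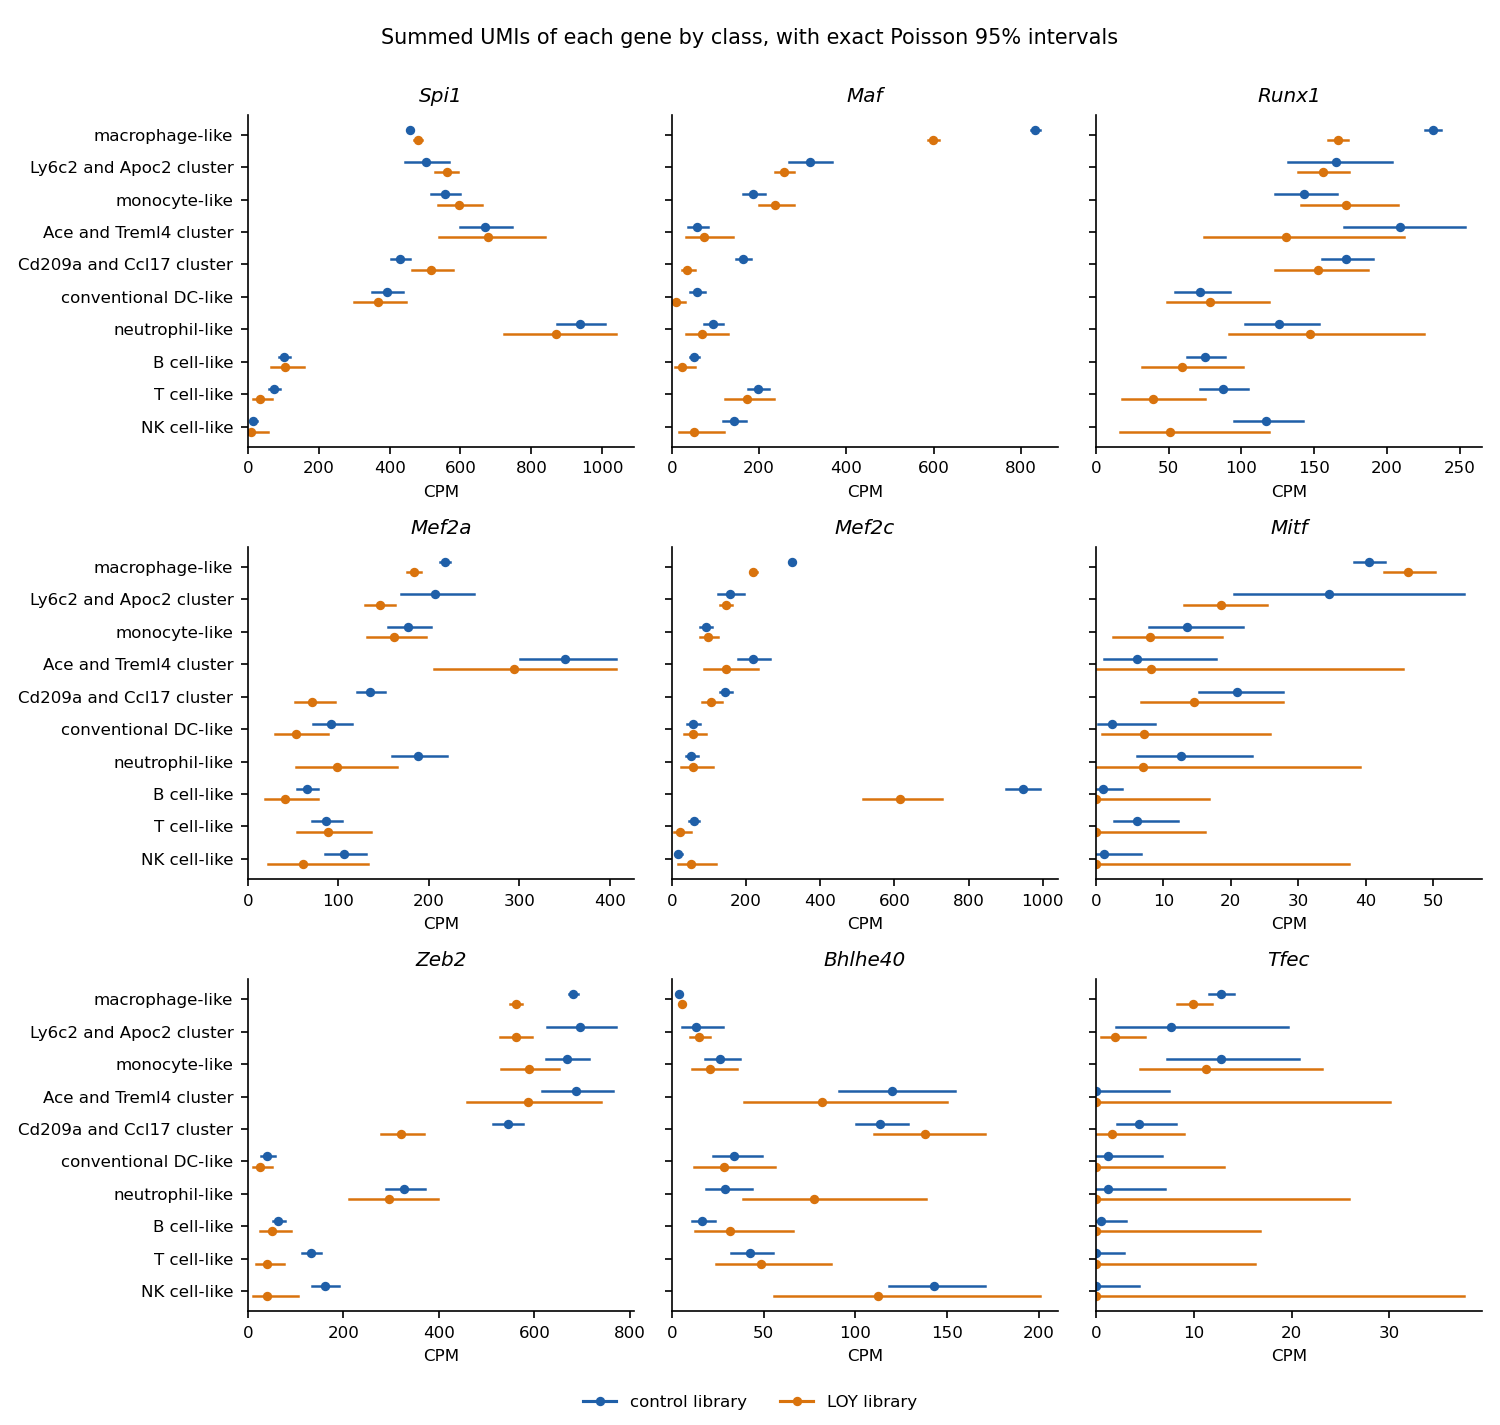
Level of each of the 9 genes (panels, x axis in CPM, each on its own scale starting at 0) in 10 classes and clusters (y axis), with control in blue and LOY in orange; points are levels over the summed cells and bars exact Poisson 95% intervals. Spi1 was highest in neutrophil-like cells, Mef2c in B cell-like cells and Maf in macrophage-like cells in both libraries, while Bhlhe40 was lower in macrophage-like cells than in every other class shown.

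Spi1, which encodes PU.1, was present in all myeloid classes and was highest in neutrophil-like cells, at 938 CPM (872 to 1008) for control and 871 CPM (724 to 1038) for LOY. Next came the Ace and Treml4 cluster (669.6 and 677 CPM) and monocyte-like cells (556 and 597 CPM). In macrophage-like cells it stood at 457 CPM (449 to 465; control) and 479.7 CPM (468 to 492; LOY). B cell-like cells, which also use PU.1, had 102 and 105 CPM, and NK cell-like cells 15.5 and 10.2 CPM. The neutrophil level was thus 205% of the macrophage level in the control library and 181% in the LOY library. After each cell was thinned to 1000 UMIs, 36.0% of control macrophage-like cells (1650 of 4579) had a Spi1 UMI, beside 4.12% of T cell-like cells (11 of 267), which should lack it; unthinned, at median depths of 5769.5 and 3875 UMIs, the shares were 88.4% and 13.9%. In those T cell-like cells the summed C1q genes, which T cells lack, stood at 13.1% of their macrophage level.

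Runx1, the DNA-binding subunit of core-binding factor and a regulator of Spi1, had a flatter pattern. Its control levels ran from 71.3 CPM in conventional dendritic cell-like cells to 231 CPM (226 to 237) in macrophage-like cells, and its LOY levels from 39.6 CPM in T cell-like cells to 172 CPM in monocyte-like cells. The LOY level of monocyte-like cells had an interval (141 to 207) that took in that of macrophage-like cells (166 CPM).

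Maf, the gene of c-Maf, which drives Il10 and genes of resident macrophages, was higher in macrophage-like cells than in the other 9 of these classes and clusters. It stood at 833 CPM (822 to 843; control) and 599 CPM (586 to 613; LOY) in macrophage-like cells. The next of them, the Ly6c2 and Apoc2 cluster, had 316 CPM (270 to 368) and 258 CPM (237 to 281), and monocyte-like cells had 187 CPM (164 to 213) and 237 CPM (201 to 279). In the control library these 3 groups did not overlap, with the cluster that carries both kinds of marker between the others. In the LOY library the intervals of the cluster and of monocyte-like cells overlapped, and macrophage-like cells lay above both. T cell-like cells, where c-Maf also acts, had 198 and 172 CPM. B cell-like cells had 50.9 and 22.8 CPM, which is 6.12% and 3.80% of the macrophage level, where the C1q genes, which B cells lack, stood at 2.64% and 2.82% of theirs. The LOY interval of the Maf share (1.24% to 8.88%) took in the C1q share, and the control interval (4.94% to 7.50%) lay above it. The part of free macrophage RNA in these low levels was not tested.

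Mitf and Tfec belong to one family of helix-loop-helix factors that act on lysosomal and osteoclast genes, and Tfec is known for its restriction to macrophages. In macrophage-like cells Mitf had 40.5 CPM (38.2 to 42.8; control) and 46.3 CPM (42.7 to 50.2; LOY), with 34.5 and 18.5 CPM in the Ly6c2 and Apoc2 cluster and 13.6 and 8.02 CPM in monocyte-like cells. In B cell-like, T cell-like and NK cell-like cells it had 2, 8 and 1 UMIs in the control library and 0 in each of the 3 in the LOY library. Tfec was sparse: 393 control and 128 LOY UMIs in macrophage-like cells gave 12.8 CPM (11.6 to 14.2) and 9.95 CPM (8.30 to 11.8). Monocyte-like cells had Tfec levels of 12.8 CPM (16 UMIs) and 11.2 CPM (7 UMIs), so on this gene they did not differ from macrophage-like cells beyond counting error. T cell-like and NK cell-like cells and the Ace and Treml4 cluster had 0 Tfec UMIs in both libraries, which in control T cell-like cells allows up to 2.32 CPM (3 counts).

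Mef2a and Mef2c, MADS-box factors first known from muscle, differed in where they were found. Mef2c was highest in B cell-like cells, at 946 CPM (902 to 992; control) and 616 CPM (516 to 729; LOY), against 325 and 220 CPM in macrophage-like cells. It was low in control NK cell-like cells (16.7 CPM). Mef2a was highest in the Ace and Treml4 cluster, at 351 CPM (301 to 407) and 294 CPM (206 to 407), followed by macrophage-like cells at 218 CPM (213 to 223) and 184 CPM (176 to 191) in control and LOY. In B cell-like cells it had 65.2 and 41.0 CPM. The 2 paralogs thus had their highest levels in different cells. Cardiomyocytes also use both genes. The 9 cardiomyocyte markers summed to 117 and 111 CPM in macrophage-like cells of the control and LOY libraries, with all 9 detected in both. Their part in the levels of Mef2a and Mef2c was not tested.

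Zeb2, a zinc-finger repressor needed for monocytes and for tissue macrophage identity, did not separate monocytes from macrophages. Its control levels were 681 CPM (672 to 690) in macrophage-like cells, 668 CPM (624 to 715) in monocyte-like cells, 688 CPM (617 to 765) in the Ace and Treml4 cluster and 695 CPM (626 to 771) in the Ly6c2 and Apoc2 cluster, with intervals that overlap. The LOY levels in the same 4 groups were 561, 589, 587 and 561 CPM, again with overlapping intervals. Conventional dendritic cell-like cells had only 39.9 and 24.9 CPM, which is 5.86% and 4.45% of the macrophage level. The C1q genes stood at 6.01% and 2.84% of their macrophage level in the same cells, and Spi1 at 85.9% and 76.5%. These dendritic cells were led by Xcr1 and Clec9a, genes of the type 1 subset.

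Bhlhe40, a helix-loop-helix repressor that peritoneal macrophages need for proliferation and that also acts in lymphocytes and dendritic cells, had the opposite pattern. In macrophage-like cells it had 112 UMIs over 4610 control cells (3.65 CPM, 3.01 to 4.40) and 69 over 3393 LOY cells (5.36 CPM, 4.17 to 6.78). NK cell-like cells had 143 CPM (118 to 171) and 112 CPM (55.9 to 200.5), the Cd209a and Ccl17 cluster 114 CPM (100.1 to 128) and 138 CPM (110.3 to 171), and the Ace and Treml4 cluster 119.7 CPM (91.1 to 154) and 81.6 CPM (39.1 to 150.1). The Cd209a and Ccl17 cluster alone held 34.7% of the control and 32.9% of the LOY UMIs of Bhlhe40. After thinning, 14.5% of control NK cell-like cells (28 of 193) and 0.109% of macrophage-like cells (5 of 4579) had a Bhlhe40 UMI; unthinned the shares were 38.9% and 1.34%.

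Within macrophage-like cells, 9 states were separated by their leading genes. Of these, 3 were named from genes of Lyve1-positive resident macrophages. They were further told apart by Cd209f and Cd209g, by Slc40a1 and Pla2g2d, and by Cxcl13 and Vsig4. Among their top 20 genes they had 6, 4 and only 2 of the Lyve1 state markers, in that order. The others were an MHC class II state, a state with chemokines and TNF, a Spp1 and Gpnmb state, 2 interferon states and a cycling state. State sizes differed between the libraries: the Spp1 and Gpnmb state had 33 control and 1436 LOY cells, and the chemokine and TNF state 1158 and 55. Levels are given for states of at least 40 cells.

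**Figure D2:**
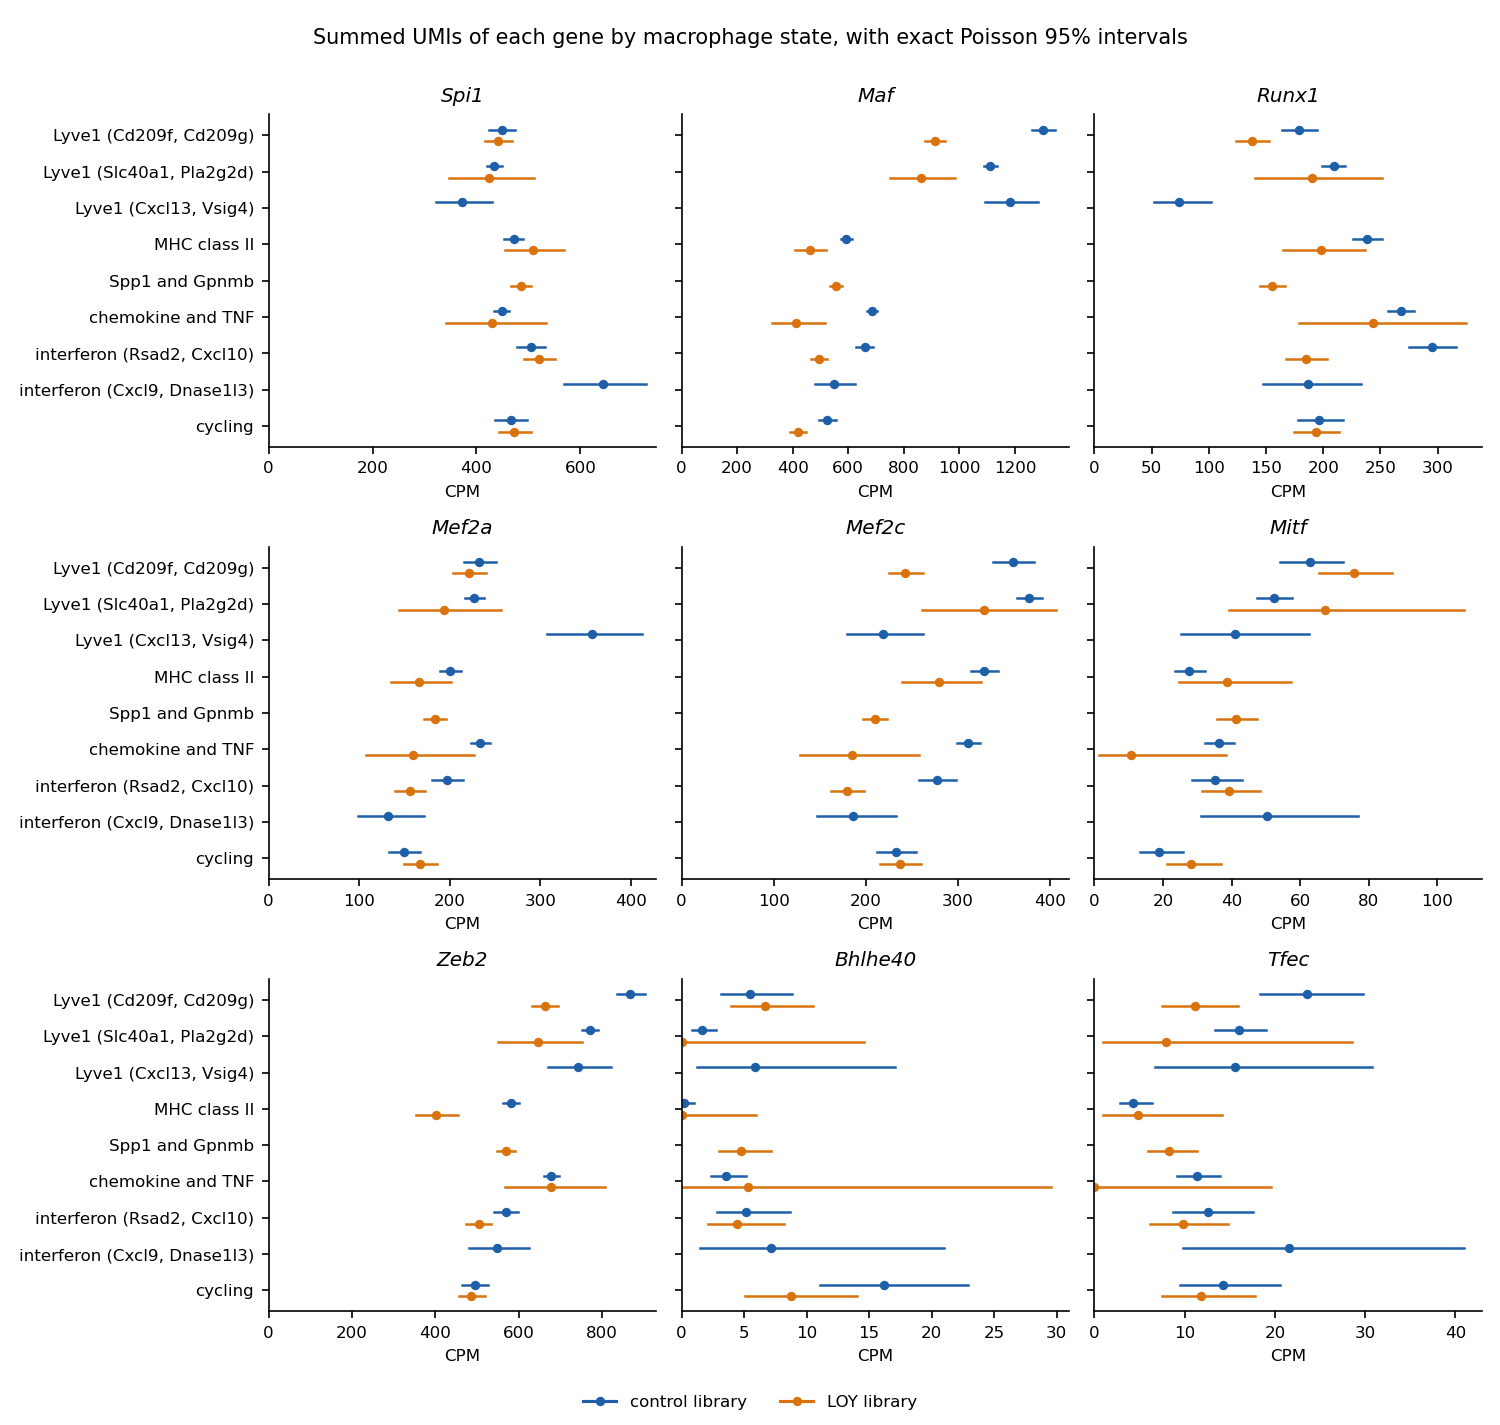
Level of each of the 9 genes (panels, x axis in CPM, each on its own scale starting at 0) in the macrophage states of at least 40 cells (y axis), control in blue and LOY in orange, with exact Poisson 95% intervals as bars. Maf was highest in the Lyve1 states of both libraries, at 1302 CPM in control and 912 CPM in LOY, while Spi1 lay between 372 and 644 CPM in every state drawn.

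Maf was highest in the Lyve1 states, which are named from genes of resident macrophages. The cells were sorted for RFP, the mark of descent from the transplanted marrow, so these states are not read as resident macrophages of the host. Whether their cells had become resident in the heart was not measured. The 3 Lyve1 states had 1302 CPM (Cd209f and Cd209g), 1183 CPM (Cxcl13 and Vsig4) and 1111 CPM (Slc40a1 and Pla2g2d) in the control library, all above the chemokine and TNF state (685 CPM), the interferon state led by Rsad2 (659 CPM), the MHC class II state (593 CPM), the interferon state led by Cxcl9 (548 CPM) and the cycling state (524 CPM). In the LOY library the order began in the same way, with 912 and 863 CPM in the 2 Lyve1 states of at least 40 cells, followed by 557 CPM in the Spp1 and Gpnmb state. Against the other macrophage-like cells of the same library, the Cd209f and Cd209g state had 1.66 times the Maf level in control and 1.76 times in LOY.

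Mitf was highest in the same state: the Cd209f and Cd209g state had 62.8 CPM (54.0 to 72.5; control) and 75.7 CPM (65.6 to 86.8; LOY), and the cycling state 18.8 and 28.3 CPM. Tfec had 23.5 CPM (18.3 to 29.8) in the Cd209f and Cd209g state and 4.32 CPM (2.80 to 6.38) in the MHC class II state of the control library. In the LOY library the same 2 states had 11.1 CPM (7.51 to 15.9) and 4.83 CPM (3 UMIs), with overlapping intervals. Mitf and Tfec thus had their highest control level in the state where Maf was highest.

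Spi1 differed little between states. In states of at least 100 cells its control levels ran from 434 to 504 CPM and its LOY levels from 442 to 521 CPM, although the 61 control cells of the interferon state led by Cxcl9 reached 644 CPM (569 to 726). Runx1 was highest in the interferon state led by Rsad2 (295 CPM, 275 to 316) and the chemokine and TNF state (268 CPM, 257 to 279.6) of the control library and low in the Cxcl13 and Vsig4 state (74.1 CPM, 52.4 to 102), where Mef2a was at its highest (357 CPM, 307 to 412). Among LOY states the highest Runx1 level was in the chemokine and TNF state (244 CPM, 178 to 325). Mef2c in control was highest in the Slc40a1 and Pla2g2d state (377 CPM, 364 to 391) and the Cd209f and Cd209g state (360.1 CPM, 339 to 383). Zeb2 in control was highest in the Cd209f and Cd209g state (868 CPM, 834 to 902) and lowest in the cycling state (494 CPM, 463 to 526). The LOY order was different, with the highest Zeb2 level in the chemokine and TNF state (678 CPM, 55 cells). The lowest LOY level was in the MHC class II state (401 CPM). Bhlhe40 stayed under 20 CPM in every state: its highest value was 16.2 CPM (32 UMIs) in the control cycling state, and the 1206 control cells of the MHC class II state held 1 UMI.

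The comparison of the 2 libraries asks whether these factors stood at other levels in heart macrophages that came from LOY marrow. In macrophage-like cells, Mef2c, Runx1 and Maf were lower in the LOY library by less than 1.5-fold, Zeb2 and Mef2a were lower by smaller margins, and Spi1 was nearly level. No member was past 1.5-fold: 0 of the 8 members measured (at least 10 CPM in either library) were higher by that much, beside 6.88% of 7868 measured genes, and 0 were lower, beside 7.87%. The call uses log2 of the ratio after adding 10 CPM to both levels. The median of the 8 was -0.25 on that log2 scale, where the median of all measured genes was -0.01. Since macrophage-like cells were defined in each library by the same clusters but mixed from states in other proportions, each member is also given within states.

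**Figure D3:**
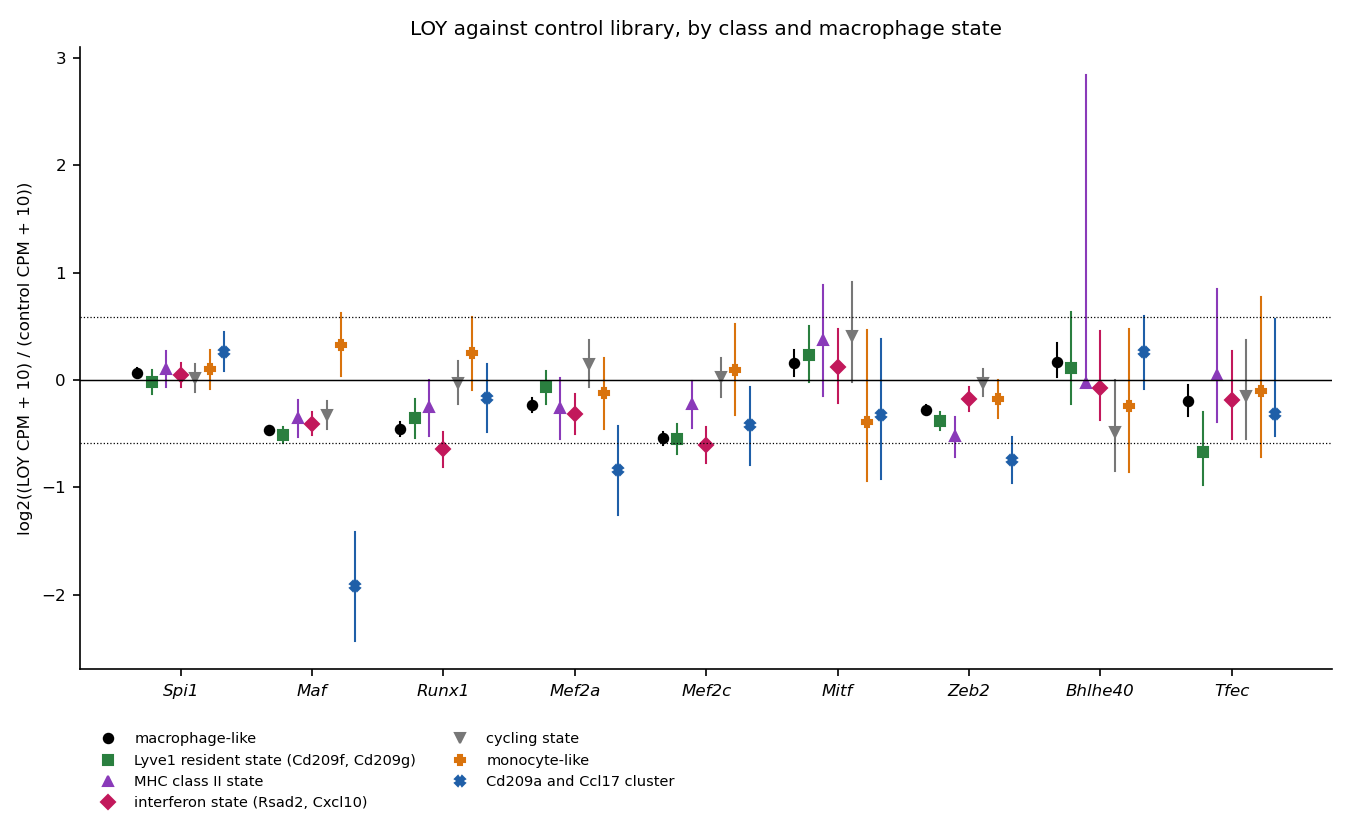
Log2 ratio of LOY to control CPM, 10 CPM added to each (y axis), for each gene (x axis) in macrophage-like cells, 4 macrophage states, monocyte-like cells and the Cd209a and Ccl17 cluster (symbols); bars are exact conditional 95% intervals of counting error and dotted lines mark 1.5-fold. Maf was below 0 in macrophage-like cells and in all 4 states drawn, Spi1 lay near 0 in each of these, and the lowest point is Maf in the Cd209a and Ccl17 cluster at -1.92. Genes under 10 CPM in both libraries are drawn too, but were not counted as measured.

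Maf went from 833 to 599 CPM, a ratio of LOY to control of 0.720 (exact conditional 95% interval 0.702 to 0.738). In the 4 states with at least 100 cells in each library the ratio was 0.70 (Cd209f and Cd209g), 0.750 (interferon, led by Rsad2), 0.778 (MHC class II) and 0.796 (cycling), and each interval lay below 1. With the LOY states weighted in the proportions of the control library, the macrophage ratio was 0.718. This weighted value has no interval and leans on states with few LOY cells. The chemokine and TNF state had 1158 control and 55 LOY cells, and the Slc40a1 and Pla2g2d state 1149 and 71. The lower Maf level was thus of similar size in the matched states and over the whole class. After thinning, 47.8% of control (2191 of 4579) and 40.3% of LOY macrophage-like cells (1338 of 3321) had a Maf UMI; unthinned, the shares were 85.5% and 72.5%.

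Mef2c had a ratio of 0.677 (0.649 to 0.706), the lowest among the members in macrophage-like cells, and Runx1 one of 0.718 (0.684 to 0.754). Both were unevenly spread over the states. Mef2c had 0.646 in the interferon state led by Rsad2 and 0.676 in the Cd209f and Cd209g state, but 1.02 (0.893 to 1.16) in the cycling state. Runx1 had 0.627 in the interferon state and 0.983 (0.851 to 1.14) in the cycling state. With the state mix of the control library, the class ratios were 0.756 for Mef2c and 0.855 for Runx1. These too have no interval and lean on the states with few LOY cells.

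Zeb2 had a ratio of 0.824 (0.802 to 0.846) and Mef2a one of 0.844 (0.805 to 0.884). In the states, Zeb2 was lowest in the MHC class II state (0.689, 0.604 to 0.784) and level in the cycling state (0.984, 0.899 to 1.08). Spi1 had a ratio of 1.05 (1.02 to 1.08) and lay between 0.985 and 1.08 in the 4 states, with every state interval including 1. Mitf also had a ratio above 1, at 1.14 (1.04 to 1.26), and it lay between 1.11 and 1.51 in the 4 states with intervals that include 1. Tfec had 0.776 (0.630 to 0.949), on 393 and 128 UMIs. Bhlhe40, at under 10 CPM in both, was not compared in this class.

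By the call of 1.5-fold, the interferon state led by Rsad2 had 2 of 8 measured members lower in the LOY library, Mef2c (278 and 179 CPM) and Runx1 (295 and 185 CPM), beside 10.1% of genes. With a pseudocount of 50 CPM neither was past 1.5-fold, and with every cell weighted equally Mef2c was not. The Cd209f and Cd209g state had 1 of 8 lower, Tfec (23.5 and 11.1 CPM), beside 9.48%. That call was also lost with a pseudocount of 50 CPM. The MHC class II state had 0 of 7 lower, beside 10.2%, and the cycling state 0 of 9, beside 10.9%. None was higher in these 4 states, beside 8.62%, 6.08%, 7.72% and 6.45% of genes in the order given. The summed stress and dissociation genes were lower in the LOY library in each of these states, for example at 9932 and 3773 CPM in the interferon state, and their part in these ratios was not tested.

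Outside the macrophage-like class, the widest gap was that of Maf in the Cd209a and Ccl17 cluster (247 control and 174 LOY cells). Maf stood there at 163 CPM (147 to 181; control) and 35.7 CPM (22.4 to 54.1; LOY), a ratio of 0.219 (0.135 to 0.336). Mef2a (135 and 71.5 CPM, ratio 0.528) and Zeb2 (544 and 322 CPM, ratio 0.591) were also lower by over 1.5-fold, so 3 of 8 measured members were, beside 17.3% of genes, and 0 were higher, beside 8.85%. With the members kept among the clustering genes, Zeb2 in the cluster was at 133 and 121 CPM and no longer past 1.5-fold. Spi1 was slightly higher (ratio 1.21, 1.06 to 1.37) and Bhlhe40 did not differ beyond counting error (1.22, 0.94 to 1.56). The make-up of the cluster differed too: the 12 macrophage markers summed to 15696 and 9509.9 CPM there, the 3 C1q genes to 9845 and 5647 CPM, the 11 conventional dendritic cell markers to 890.1 and 531 CPM, and Ccr7, Fscn1 and Ccl22, genes of migratory dendritic cells, to 263 and 406 CPM. The C1q genes in the cluster stood at 43.7% (control) and 20.4% (LOY) of their macrophage level. The part of that make-up in the lower Maf level was not tested.

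In B cell-like cells (813 and 238), Mef2c, which B cells need for their response to antigen, was at 946 and 616 CPM, a ratio of 0.651 (0.542 to 0.775). Maf was also past 1.5-fold lower (50.9 and 22.8 CPM, 93 and 5 UMIs) and Bhlhe40 higher (16.4 and 31.9 CPM, 30 and 7 UMIs), both with intervals that include 1. That is 2 of 7 members lower, beside 22.9% of genes, and 1 of 7 higher, beside 9.10%. After thinning, 57.6% of control B cell-like cells (464 of 806) and 42.9% of LOY ones (27 of 63, exact 95% interval 30.5% to 56.0%) had a Mef2c UMI; unthinned, at medians of 2049 and 859 UMIs, the shares were 78.0% and 39.1%. Thinning left out 175 of the 238 LOY cells. In these cells the Mef2c call held in 7 of 13 alternative settings, and the Maf and Bhlhe40 calls in 10 of 13 each.

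In neutrophil-like cells (300 and 127), Mef2a had 188 and 98.3 CPM (149 and 14 UMIs, ratio 0.523, 0.279 to 0.906) and Bhlhe40 had 29.0 and 77.2 CPM (23 and 11 UMIs, ratio 2.66, 1.17 to 5.69). These were 1 of 8 members lower, beside 23.2% of genes, and 1 of 8 higher, beside 16.8%. LOY neutrophil-like cells had a median of 830 UMIs, so both rest on few counts. With all doublets kept, Mef2a was at 192 and 144 CPM and not past 1.5-fold. In monocyte-like cells (169 and 213), 0 of 9 members were past 1.5-fold in either direction, beside 9.30% of genes higher and 16.4% lower. Maf stood there at 187 and 237 CPM (ratio 1.27, 1.03 to 1.57), but with each library clustered on its own it was at 156 and 137 CPM, which turns the direction. C1qb was also higher in the LOY monocyte-like cells (1069 and 2771 CPM), and the part of macrophage RNA or cells in that Maf level was not tested.

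Across 23 profiles (13 control and 10 LOY classes or states of at least 100 cells, each library centred on its own mean), the members' log2 levels were compared in 36 pairs. Mef2a and Zeb2 were the most alike (Pearson r 0.90), followed by Maf and Mitf (0.89), Runx1 and Zeb2 (0.85) and Maf and Tfec (0.82). Bhlhe40 ran against Maf (-0.78) and Mitf (-0.68). Mef2c had its closest member in Tfec, at 0.31. These are descriptions with no test: profiles of 1 library share that library, its depth and its free RNA, and states of 1 class resemble each other.

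**Figure D4:**
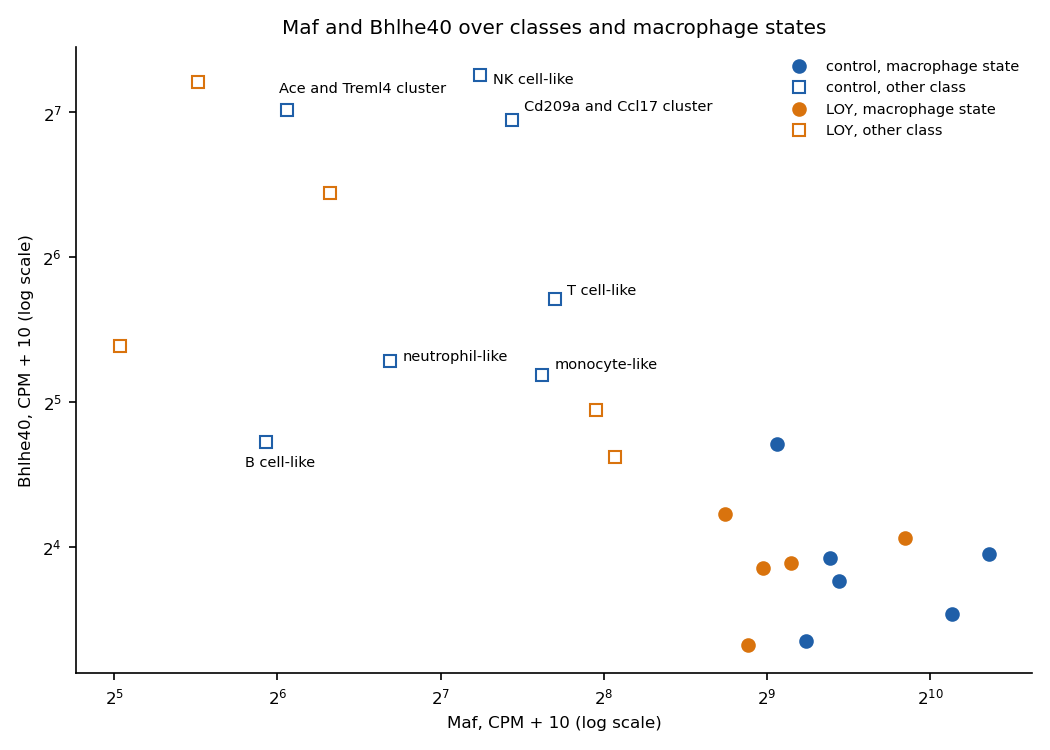
Maf (x axis) against Bhlhe40 (y axis), both as CPM + 10 on log scales with base 2, for the 23 profiles; filled circles are macrophage states and open squares other classes, control in blue and LOY in orange, with the control classes named. All macrophage states lie at high Maf and low Bhlhe40, and the NK cell-like cells, the Ace and Treml4 cluster and the Cd209a and Ccl17 cluster lie at the highest Bhlhe40.

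Of 5254 genes compared over the same 23 profiles, those most like Maf were Mertk (0.96), the receptor for dying cells, Stab1 (0.95), a scavenger receptor, and Tbc1d9b (0.95). Most like Zeb2 were Csf1r (0.96), the receptor for the macrophage growth factor, Ctsa (0.96), a lysosomal carboxypeptidase, and Cd68 (0.96). Spi1 was most like Hsd17b11 (0.95), Skap2 (0.94) and Ralb (0.93), and Runx1 most like Taok3 (0.92), Tm6sf1 (0.90) and Lair1 (0.90). Mef2a was followed most closely by Rnf130 (0.93), Hmox1 (0.93), the haem-degrading enzyme, and Dusp6 (0.92), and Mef2c by Lmo2 (0.89), Snx30 (0.89) and St6gal1 (0.88). For Mitf the nearest were Rab11fip5 (0.96), Camk1 (0.96) and Timp2 (0.96), for Tfec F13a1 (0.95), Zcchc24 (0.90) and Msr1 (0.90), and for Bhlhe40 Traf1 (0.93), Dusp5 (0.88) and Mdh2 (0.87). Mertk, Csf1r and Cd68 are among the markers that named the macrophage-like class, and F13a1 among those of the Lyve1 states. Their likeness to a member is thus not independent of how the profiles were named.

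Related genes were read in macrophage-like cells from 5 lists, each beside the 6.88% of genes higher and 7.87% lower there. Of 23 measured other macrophage transcription factors, 9 were lower in the LOY library by 1.5-fold and 0 higher, with a median log2 ratio of -0.37. Cebpb, an inflammatory and monocyte factor, was at 655 and 98.8 CPM and Id3, an inhibitor of helix-loop-helix factors, at 109.9 and 22.1 CPM, the lowest ratios of the list (0.151 and 0.202). The highest were Nr1h3, the sterol sensor LXR alpha (7.86 and 14.0 CPM, 1.78), and Elf4 (28.3 and 41.4 CPM, 1.46). The lower levels of Cebpb and Id3 were not confined to macrophage-like cells. Cebpb was at 199 and 31.9 CPM in B cell-like, 4914 and 1053 CPM in neutrophil-like and 1928 and 327 CPM in monocyte-like cells. Id3 in the same order was at 107 and 59.3 CPM, 44.1 and 7.02 CPM, and 213 and 40.1 CPM. The part of the lower stress genes in these values was not tested. The members' own median (-0.25) lay between that of this list and that of all genes (-0.01).

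Of 11 measured paralogs and partners of the members, 1 was lower (Irf4, 12.2 and 2.72 CPM) and 0 higher, with a median of -0.21. Spic was at 18.9 and 10.3 CPM, Runx3 at 67.1 and 95.6 CPM and Tfeb at 23.1 and 28.0 CPM. Among 7 measured genes that repress MEF2 or signal to it, 0 were past 1.5-fold either way (median -0.18). Camk1d, a calcium-dependent kinase, had the lowest ratio (109 and 69.7 CPM) with Mapk14 (91.0 and 77.5 CPM), and Hdac4 (14.9 and 15.2 CPM) and Hdac9 (22.9 and 21.3 CPM) the highest.

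Genes that PU.1 and MITF are known to act on were read in the same way. Of 20 PU.1 targets, 3 were higher and 1 lower (median 0.12): Ncf1 (145 and 264 CPM) and Cyba (1654 and 2776 CPM), parts of the phagocyte oxidase, had the highest ratios, and Cd14 (607 and 182 CPM), the endotoxin co-receptor, and Adgre1 (420.4 and 294 CPM), which encodes F4/80, the lowest. Of 22 targets of MITF and its relatives, 6 were higher and 0 lower (median 0.31), led by the lysosomal protease gene Ctsd (638 and 3004 CPM) and Gpnmb (3.46 and 44.1 CPM). Lamp2, a lysosomal membrane protein gene, had 471 and 382 CPM. Ctsd and Gpnmb are among the genes by which the Spp1 and Gpnmb state was named, and that state held 33 control and 1436 LOY cells. Ctsd was also higher in the LOY library in B cell-like, neutrophil-like and monocyte-like cells (ratios 2.46, 1.81 and 2.58). The median log2 ratio of the MITF targets there was -0.20, 0.01 and 0.20, and it was -0.32 in the Cd209a and Ccl17 cluster. In the matched states, 7 of 23 measured MITF targets were higher and 2 lower in the cycling state, beside 6.45% and 10.9% of genes, with a median of 0.28. In the interferon state led by Rsad2, 7 of 22 were higher and 0 lower, beside 8.62% and 10.1% (median 0.33), and in the Cd209f and Cd209g state 5 of 22 and 0, beside 6.08% and 9.48% (median 0.17). The MHC class II state had 3 of 21 higher and 1 lower, beside 7.72% and 10.2% (median 0.09).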

How the data were processed

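The members and all gene and marker lists were chosen with earlier results of these data known. Per the labels' protocols, left ventricles were digested with collagenases, hyaluronidase and DNase, sorted, and made into libraries with a 10x Genomics 3' kit, with about 8000 cells loaded per group. The submitters' processing notes name Cell Ranger 5.0.0 and the build mm10. Each deposited matrix holds UMI counts that the authors left unnormalized, by gene and barcode. No label names the annotation release, strand setting or barcode filter; barcode totals started at 504 UMIs (control) and 500 (LOY).

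Filtering kept barcodes that reached 500 UMIs and 200 genes and whose mitochondrial share did not exceed 10%. The work used Python 3.11.15 with scanpy 1.11.5, pandas 2.3.3, scipy 1.17.1 and numpy 2.4.6. Scrublet scores for doublets were computed for each library alone. Its automatic threshold removed 88 control cells and marked 0 in the LOY library, where the 235 highest scores (4.34%) were removed instead. Both libraries were clustered together (2000 variable genes without the members, 30 principal components, 15 neighbours, Leiden resolution 1, no batch correction), giving 22 clusters. Names of clusters rest on marker lists of 16 cell types, and macrophage states from at least 2 state markers among the top 20 genes. The study may have named some cells differently.

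Levels are CPM from the UMIs of all cells of a class in 1 library. Ratios used classes and states of at least 100 cells in each library, genes at 10 CPM or more in either, and a pseudocount of 10 CPM. A call was 1.5-fold. Intervals (95%) are exact Poisson for levels, exact conditional for ratios and Clopper-Pearson for shares, and cover counting error only. The named genes were all 9 members, the 3 genes most like each member (at 50 CPM or more in a profile, without ribosomal-protein, mitochondrial, haemoglobin, receptor-segment and unnamed genes), and the 2 highest and 2 lowest measured genes of each list. Some of these results are not reported here. Genes named for a class or state come from its leading genes. Ratios and calls were run on simulated counts with known changes and counting error only. Variation between mice, libraries or clusterings was not simulated, so the simulation does not speak to it.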

Additional observations from a re-analysis of the deposited data

How the results depend on the processing

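No paired analysis was possible because each group has 1 library and the labels give no replicate numbers. In macrophage-like cells, 0 of the measured members were past 1.5-fold higher in all 19 alternatives and 0 were lower in 18 of them. With the Ly6c2 and Apoc2 cluster added to the class, a choice made after seeing the data, 1 member, Mef2c, was lower. The members' median log2 ratio stayed between -0.31 (pseudocount of 1 CPM) and -0.19 (cells thinned to 1000 UMIs). Alternatives covered pseudocount, scaling, filters, doublets, thinning, clustering, a gate on C1q genes and the state mix, and, after seeing the data, leaving out the Spp1 and Gpnmb state, the chemokine and TNF state or the shared barcodes. Of 11 member ratios called in any class or state, 3 were called in every alternative: Maf and Mef2a in the Cd209a and Ccl17 cluster and Bhlhe40 in neutrophil-like cells. None of the 11 changed sign. Zeb2 in that cluster was called in 12 of 13 alternatives (log2 ratio -1.54 to -0.12), Mef2c in B cell-like cells in 7 of 13, Maf and Bhlhe40 there in 10 of 13 each, Mef2a in neutrophil-like cells in 10 of 11, Mef2c in the interferon state in 5 of 7, Runx1 there in 6 of 7 and Tfec in the Cd209f and Cd209g state in 6 of 7. Maf in the Cd209a and Ccl17 cluster ranged from -3.07 to -1.31. That cluster held 155 to 299 control cells in settings that clustered the cells again, beside 247 in the main setting. Calls in those settings thus did not rest on the same cells. Settings that clustered the cells again give no value for the Cd209f and Cd209g state or the interferon state, nor for other groups that were not found again with enough cells. Depth limits Tfec, Mitf and Bhlhe40 most, and the B cell-like and neutrophil-like cells of the LOY library.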

Other observations

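Members seen per cell gave a further description. After thinning to 1000 UMIs, a macrophage-like cell showed a mean of 2.00 (control) and 1.77 (LOY) of the 9 genes, and 9.33% and 12% of cells showed 0 of them. In the Cd209f and Cd209g state the means were 2.26 and 2.08, in monocyte-like cells 1.43 and 1.58, and in T cell-like cells 0.431 and 0.386. At least 3 of the 9 were seen in 32.4% of control and 24.1% of LOY macrophage-like cells. T cell-like cells of the control library showed as many in 1.5% of cells.

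A small cluster led by the cardiomyocyte genes Myl7 and Tnnt2 (26 control and 38 LOY cells) held Maf at 756 and 659 CPM, Spi1 at 454 and 409 CPM and Zeb2 at 716 and 617 CPM, with Bhlhe40 at 0 UMIs in both. Its Mef2c level, 306 and 133 CPM, and its Mef2a level, 188 and 175 CPM, were not above those of macrophage-like cells in either library.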
